A study of Mus musculus with 5 samples.

Results

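Angptl4 and the genes that control the plasma lipases were examined in the livers of mice given an antibody against CSF1R, the receptor for the macrophage growth factors CSF1 and IL-34. The genes were Angptl4, Angptl6, Lpl, Lipc, Lipg, Gpihbp1 and Lmf1. They were chosen by their roles and with earlier results of these arrays known, in particular the intensity of Angptl4 in the anti-CSF1R and control groups. Of these 7 genes, 5 had a probe set that the platform annotation assigns to them alone, out of 18820 genes with such a probe set in all. Angptl6 was listed only on 2 probe sets shared with Shfl, and Lipc was not listed, so neither is given a value here. Each of the other 5 was measured by 1 probe set. Because the choice used the same comparison, the differences of these 5 genes are given as a description, with no test.

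All mice were adult C57Bl/6, and all were injected into the peritoneal cavity 3 times a week for 6 weeks with 300 µg of antibody. The anti-CSF1R group received the antibody M279 and gave 2 arrays. The control group received rat IgG and gave 3 arrays. Each array measured RNA of whole liver, so every value pools hepatocytes with the other cells of the organ. Nothing in the labels says that the samples came from separate animals, so the spread between arrays may be partly technical.

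Triglyceride carried in the blood by lipoproteins is split by a family of secreted lipases. Lipoprotein lipase (Lpl) is carried across capillary endothelium and held there by Gpihbp1, hepatic lipase (Lipc) works in the liver sinusoids, and endothelial lipase (Lipg) acts mainly on the phospholipids of high-density lipoprotein. Lmf1 is a protein of the endoplasmic reticulum that these lipases need to fold into active enzymes. Angptl4 is a secreted inhibitor of lipoprotein lipase. Its gene is known to be induced by fasting, fatty acids acting through the PPAR receptors, glucocorticoids and low oxygen. Angptl6 belongs to the same family of angiopoietin-like proteins.

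The arrays were alike as a whole. Median probe set intensity lay between 32.5 and 33.9, and pairs of arrays correlated at Pearson's r of 0.983 to 0.992 across 35556 probe sets on the log2 scale. Controls correlated with each other at 0.990 to 0.992, and with anti-CSF1R replicate 2 at 0.983 to 0.984. Anti-CSF1R replicate 1 correlated at 0.987 to 0.989 with the controls and at 0.989 with anti-CSF1R replicate 2. The median difference between the groups depended on level. It was 0.18 and 0.12 (log2, anti-CSF1R minus control) in the first and second level quartiles, which hold the dimmest genes, -0.15 in the third and -0.06 in the brightest, against 0.04 over all genes. In a two-sided limma fit over the whole table, 0 probe sets (0%) reached the adjusted threshold of 0.05. Before adjustment, limma put 9.91% of genes higher and 8.4% lower at a p under 0.05.

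Angptl4 was higher in anti-CSF1R liver. Its probe set read 709.6 and 725 intensity units in anti-CSF1R liver, against 292, 317 and 369 in control liver. Both anti-CSF1R arrays lay above every control, and they were closer to each other than any pair of controls. On the log2 scale the means were 9.49 ± 0.02 in anti-CSF1R liver (SD, n = 2) and 8.34 ± 0.17 in control liver (SD, n = 3). The difference of 1.15 ± 0.13 (standard error, SE, from the limma fit) was a fold of 2.21. The gap between the lowest anti-CSF1R array and the highest control was 0.95, and the controls themselves spanned 0.34. Over all genes this was the fifth highest difference. Only 7 of the 18820 genes (0.0372%) were at least 2-fold higher with no overlap between the groups.

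**Figure D1:**
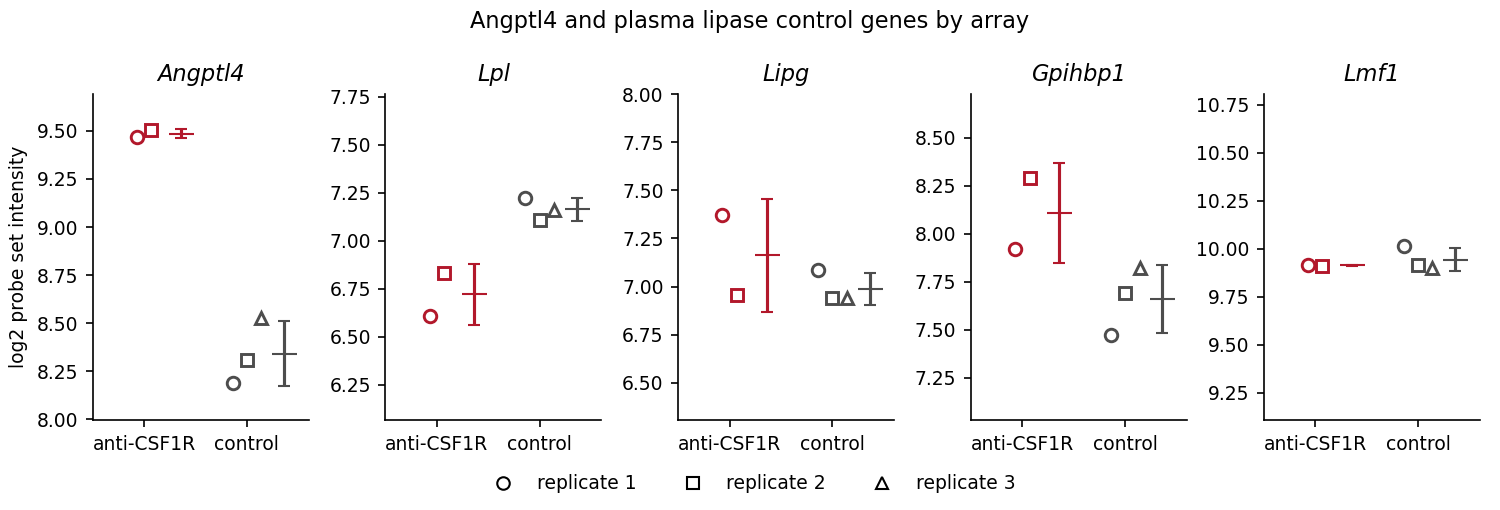
Log2 probe set intensity of the 5 measured genes in each array, with anti-CSF1R (n = 2) left of control (n = 3) in every panel. Open symbols are single arrays, the bar beside them is the mean ± SD, and all panels span the same log2 range. Angptl4 and Gpihbp1 lie above all controls, Lpl lies below them, and Lipg and Lmf1 overlap.

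Lpl, the enzyme that Angptl4 inhibits, was lower in anti-CSF1R liver. Its probe set read 97.5 and 114 in anti-CSF1R liver, against 149, 138 and 143 in control liver. The groups did not overlap, the gap between them being 0.27 on the log2 scale, and the 3 controls lay within 0.12 of each other. The means were 6.72 ± 0.16 in anti-CSF1R liver (SD, n = 2) and 7.16 ± 0.06 in control liver (SD, n = 3), a log2 difference of -0.44 ± 0.12 (SE). Lpl belongs to the third quartile of genes by level, where the median gene also had a negative difference. With quantile normalization its difference was -0.30 and with cyclic loess -0.31, and both anti-CSF1R arrays still lay below all controls.

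Gpihbp1, which binds lipoprotein lipase on endothelial cells, was higher in anti-CSF1R liver by a smaller margin. It read 243 and 313 in anti-CSF1R liver, against 177, 207 and 226 in control liver. The groups were apart by only 0.10 on the log2 scale, while the 2 anti-CSF1R arrays differed from each other by 0.37 and the controls spanned 0.35. The means were 8.11 ± 0.26 in anti-CSF1R liver (SD, n = 2) and 7.66 ± 0.18 in control liver (SD, n = 3), a log2 difference of 0.45 ± 0.17 (SE). Without anti-CSF1R replicate 2 the difference was 0.26.

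Endothelial lipase (Lipg) gave no common direction. It read 166 and 124 in anti-CSF1R liver, against 136, 123 and 123 in control liver. Anti-CSF1R replicate 1 was the highest of all arrays and replicate 2 lay among the controls. The log2 difference of 0.17 ± 0.15 (SE) had a 95% interval of -0.20 to 0.55, and it was 0.38 without anti-CSF1R replicate 2 and -0.03 without replicate 1.

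The lipase maturation factor Lmf1 had the brightest probe set of the group and the smallest difference. It read 965 and 961 in anti-CSF1R liver, against 1034, 965 and 956 in control liver. Control replicate 1 was the highest array and the other 4 were nearly equal. The log2 difference was -0.03 ± 0.10 (SE), with a 95% interval of -0.28 to 0.22. It was 0.0045 without control replicate 1 and 0.0068 with arrays centred on their medians.

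**Figure D2:**
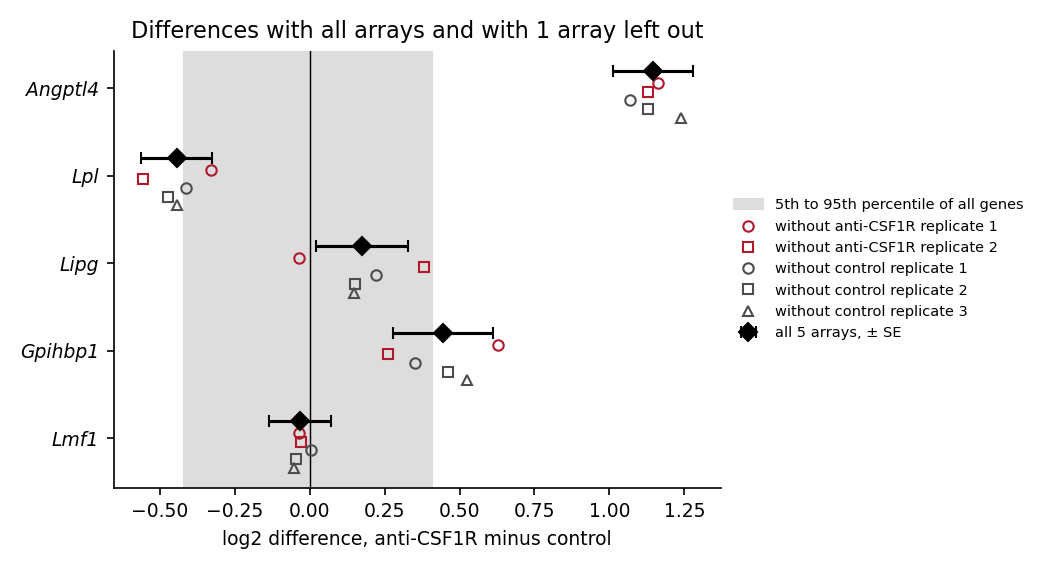
Log2 difference, anti-CSF1R minus control, of the 5 measured genes. Black diamonds use all 5 arrays with their SE, open symbols leave out 1 array each, and the grey band holds the 5th to 95th percentile of all genes (-0.42 to 0.41). Angptl4 stays between 1.07 and 1.24 whichever array is left out, while Lipg crosses 0.

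Of the 5 measured genes, 2 were above all controls and 1 below. Over all genes 25.1% were above all controls and 19.5% below, so an ordering of this kind was common on these arrays. The size of the Angptl4 difference was rare, and the differences of Lpl and Gpihbp1 lay just outside the 5th to 95th percentile of all genes, which ran from -0.42 to 0.41.

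Markers of the cells known to make these proteins were read beside them. Lpl in adult mouse liver is known as a product of Kupffer cells, the resident macrophages, more than of hepatocytes. Of 8 Kupffer cell markers 5 were lower and 3 higher, with a median of -0.18. Of the 8, 2 lay below all controls, Csf1r (-0.56) and Adgre1 (-0.48), and 1 above, Marco (1.34). Over all genes 19.5% lay below all controls and 25.1% above. The summed intensity of the Kupffer cell markers was 2506 and 3284 in anti-CSF1R liver, against 2989 to 3435 in control liver. Of 7 other macrophage and monocyte markers 5 were lower, with a median of -0.29 and sums of 1339 and 1687, against 1546 to 1768 in control liver. Of these 7, 3 lay below all controls, Ctss (-0.60), Cx3cr1 (-0.57) and Mpeg1 (-0.57), and 1 above, Ccr2 (0.09). Taken singly, anti-CSF1R replicates 1 and 2 had medians of -0.38 and 0.08 for the Kupffer cell list, and -0.56 and -0.02 for the other list. Both list medians thus rest on replicate 1, while the genes named as below all controls were so on both arrays. Lpl was below all controls on both arrays. Anti-CSF1R replicate 1, which had the lower Lpl value of the 2, also had the lower sum in both lists. The controls ran otherwise: control replicate 2 had the lowest Lpl value of the controls (138) and the highest sum in both lists (3435 and 1768). The Kupffer cell sum of anti-CSF1R replicate 2 (3284) was above those of control replicates 1 (2989) and 3 (3128), while its Lpl value was below every control. The brightest of each list, Vsig4 and Lyz2, had mean levels of 10.05 and 9.80 on the log2 scale. The dimmest, Marco and Ccr2, had mean levels of 5.43 and 4.34. In whole tissue, fewer cells of a type and less RNA per cell cannot be told apart, and the part of these cells in the Lpl difference was not tested.

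Gpihbp1 is a gene of capillary endothelium. Among 8 markers of sinusoidal endothelium 3 were higher and 5 lower, with a median of -0.08 and sums of 4864 and 4619 in anti-CSF1R liver, against 4334 to 4601 in control liver. Clec4g, a lectin of sinusoidal cells, had a difference of 0.31 ± 0.10, and Fcgr2b, their Fc receptor, 0.18 ± 0.12. In the other direction, the hyaluronan receptor Lyve1 was at -0.33, the junction protein gene Cdh5 at -0.29, the scavenger receptor Stab2 at -0.15, Kdr at -0.10 and Oit3 at -0.05. Among 7 markers of other endothelium 5 were higher, with a median of 0.11. Their sums were 1346 and 1454 in anti-CSF1R liver, against 1151 to 1306 in control liver, and the highest sum, like the highest Gpihbp1 value, was on anti-CSF1R replicate 2. The water channel Aqp1 made up much of that sum and differed by 0.33 ± 0.12. The sinusoidal sum was instead higher on anti-CSF1R replicate 1. Control replicate 3 had the highest sum of other endothelium and the highest Gpihbp1 value of the controls. The lowest such sum of the controls was on replicate 2 (1151) and the lowest Gpihbp1 value on replicate 1 (177). The part of endothelial cells in the Gpihbp1 difference was not tested.

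Angptl4 is made by hepatocytes and, more abundantly, by adipocytes. Of 8 hepatocyte markers 3 were higher and 5 lower, with a median of -0.02 and sums of 52847 and 51362 in anti-CSF1R liver, against 52690 to 54477 in control liver. Albumin (Alb) was at 13.13 on the log2 scale in both groups. Of 8 adipocyte markers all 8 were higher, with a median of 0.21, and 5 lay above all controls, against 25.1% of all genes. Of the 8 markers, 5 were dimmer than the median gene. The summed intensity of the adipocyte markers, most of it from Car3, was 7366 and 7343 in anti-CSF1R liver, against 6819 to 7390 in control liver. Car3 had a mean level of 12.78 on the log2 scale and Fabp4, the next brightest, 6.49. The sum therefore says little about the markers other than Car3. The adiponectin gene Adipoq had a mean level of 3.93 and the leptin gene Lep one of 3.77, in the second and the first level quartile, where the median differences over all genes were 0.12 and 0.18. Their own differences were 0.35 for Adipoq and 0.38 for Lep, and that of the lipid droplet protein gene Cidea was 0.55, all 3 above all controls. Cidea had a mean level of 3.16, in the first level quartile. Plin1, also above all controls, differed by 0.17, and the overlapping Cidec, Car3 and Retn by 0.05, 0.04 and 0.02. Fabp4, a fatty acid binding protein of adipocytes and macrophages, read 6.46 and 6.82 on the log2 scale in anti-CSF1R liver, against 6.28 to 6.46 in control liver. The part of fat cells in the Angptl4 difference was not tested. The medians of the remaining marker lists were 0.23 for exocrine pancreas, 0.23 for neutrophils, 0.11 for skeletal muscle, 0.08 for stellate cells, -0.01 for cholangiocytes, -0.08 for lymphocytes and 0.22 for erythroid cells, of which 2 markers were measured. All 6 exocrine pancreas markers were higher and 4 lay above all controls, and of 5 neutrophil markers 4 were higher and 4 above. All markers of these 2 lists were dimmer than the median gene.

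Partners of the plasma lipases did not share one direction. None of 13 measured genes passed an adjusted p of 0.05 in limma, 6 were higher and 7 lower, and the median difference was -0.03 (0.02 without anti-CSF1R replicate 2). Sel1l, an adaptor of the endoplasmic reticulum that works with Lmf1 in lipase maturation, had 10.14 and 9.67 in anti-CSF1R liver, against 10.43, 10.52 and 10.47 in control liver (log2). Pcsk5, a protease that can cleave endothelial lipase and angiopoietin-like proteins, had 6.14 and 5.88 in anti-CSF1R liver, against 6.44, 6.55 and 6.41 in control liver. The groups did not overlap for either gene, with differences of -0.57 ± 0.16 for Sel1l and -0.46 ± 0.13 for Pcsk5 (SE, adjusted p = 0.20 for each in limma).

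The apolipoproteins that act on the lipases differed less. Apoc3, an inhibitor of triglyceride clearance, had the highest level of the list and differed by 0.09 ± 0.11. The lipase activator Apoc2 differed by 0.21 ± 0.13 and Apoa5, which aids lipolysis, by 0.10 ± 0.11. Apoc4, from the same gene cluster as Apoc2, was above all controls, at 11.40 and 11.74 in anti-CSF1R liver, against 11.32, 11.24 and 11.23 in control liver. Angptl8, a feeding-induced gene of the same family, varied widely within the controls. It had 9.76 and 9.57 in anti-CSF1R liver, against 10.66, 9.31 and 10.13 in control liver, so its difference of -0.37 ± 0.37 was within the spread.

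Other angiopoietin-like and angiopoietin genes did not show the Angptl4 difference. Of 8 measured genes 5 were higher and 3 lower, from -0.37 to 0.38, with a median of 0.06 that was -0.03 with quantile normalization and -0.04 with cyclic loess, and 5 of the 8 were dimmer than the median gene. The angiopoietin receptor Tek differed by -0.14 ± 0.11 and its relative Tie1 by 0.09 ± 0.10. Receptors and other genes of lipoprotein uptake were all at or below 0: 6 of 6 measured genes, with a median of -0.22 and 2 below all controls, against 19.5% of all genes. Sort1, a sorting receptor of hepatocyte lipoprotein secretion, differed by -0.28 ± 0.12 (adjusted p = 0.28 in limma), and Apoe, a ligand for remnant uptake, stood at 13.14 in both groups. The median of the uptake list was -0.02 without anti-CSF1R replicate 2.

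Lipases that work inside cells and their regulators were split, with 7 higher and 7 lower of 14 and a median of -0.07 (0.01 without anti-CSF1R replicate 2 and -0.15 without replicate 1). Pnpla3, a lipid droplet protein of hepatocytes driven by the lipogenic programme, had 5.67 and 5.50 in anti-CSF1R liver, against 6.21, 7.42 and 6.65 in control liver. Its controls spanned more than 1 log2 unit, and the difference was -1.18 ± 0.34 (adjusted p = 0.21 in limma). Pnpla2, the adipose triglyceride lipase, had 9.33 and 9.58 in anti-CSF1R liver, against 9.13, 9.22 and 9.16 in control liver. Its difference was 0.29 ± 0.12, with no overlap. The carboxylesterase Ces1d differed by -0.15 ± 0.11 and the deacetylase Aadac, the brightest of the list, by 0.0025 ± 0.10.

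**Figure D3:**
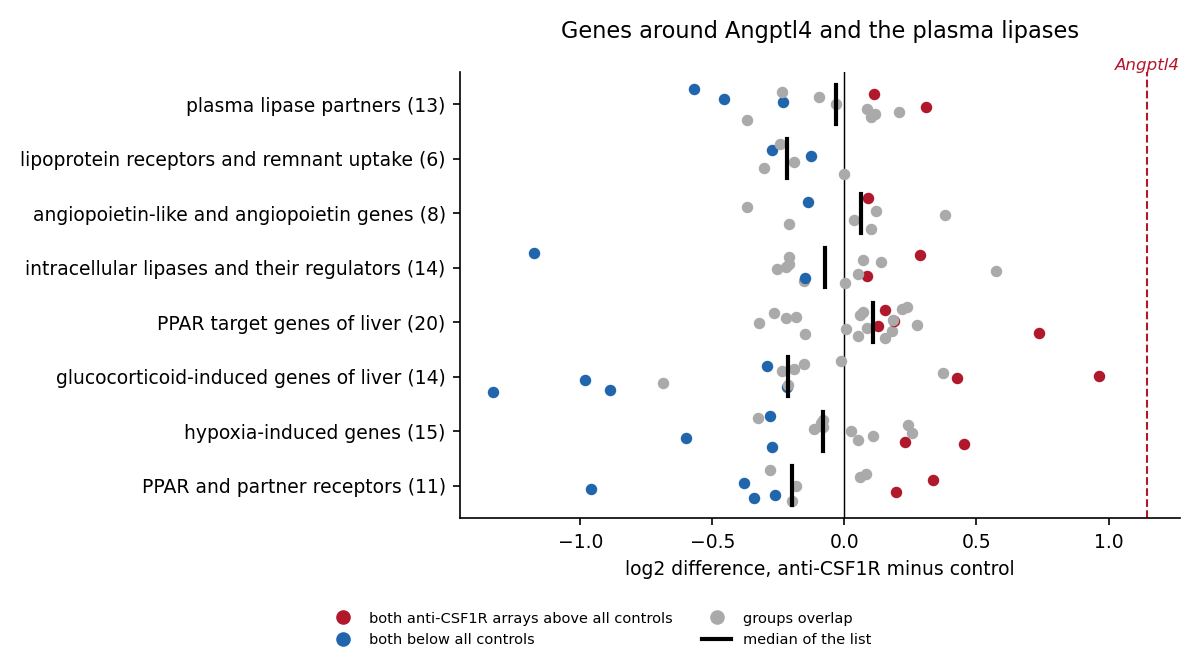
Log2 difference, anti-CSF1R minus control, of each measured gene in 8 lists, with the number of genes in brackets and the list median as a black line. Red points had both anti-CSF1R arrays above all controls, blue points both below, and grey points overlap. No gene of the lists is higher by as much as Angptl4 (1.15, dashed line), while Cdkn1a (-1.33) and Pnpla3 (-1.18) are lower by more than that.

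Angptl4 responds to several known inducers, and the other target genes of each were read beside it. The part of any of these inducers in the Angptl4 difference was not tested. PPAR target genes of the liver had 15 higher and 5 lower of 20, with a median of 0.11, and none passed in limma. Acot1, an acyl-CoA thioesterase, had 6.71 and 6.72 in anti-CSF1R liver, against 5.59, 6.19 and 6.14 in control liver. This was the largest difference of the list, at 0.74 ± 0.20 (adjusted p = 0.20). The liver fatty acid binding protein Fabp1 and the carnitine carrier Slc25a20 were also above all controls, by 0.19 ± 0.11 and 0.15 ± 0.11. Of this list 4 of 20 genes were above all controls, against 25.1% of all genes.

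Several well-known PPAR targets overlapped between the groups. Pdk4, a kinase that blocks pyruvate oxidation, read 8.91 and 7.42 in anti-CSF1R liver, against 8.62, 8.61 and 8.06 in control liver. Cpt1a, which controls fatty acid entry into mitochondria, differed by 0.0045 ± 0.14, and the lipid droplet protein Plin2 by 0.07 ± 0.15. Cyp4a14, a fatty acid hydroxylase, ranged from 7.52 to 11.02 within the controls alone. On the arrays taken singly, the median of the list was 0.20 above the control mean for anti-CSF1R replicate 1 and 0.01 for replicate 2.

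Glucocorticoid-induced genes had 3 higher and 11 lower of 14, with a median of -0.22 (-0.08 with quantile normalization). The metallothionein Mt2 had 8.24 and 8.60 in anti-CSF1R liver, against 7.57, 7.60 and 7.19 in control liver, a difference of 0.97 ± 0.18 (adjusted p = 0.19 in limma). In the other direction, the cell cycle inhibitor Cdkn1a (-1.33 ± 0.31) and the iron-scavenging protein Lcn2 (-0.98 ± 0.26) were below all controls. Tat, a tyrosine-degrading enzyme and the brightest of the list, differed by -0.29 ± 0.14. Fkbp5, a chaperone widely used as a readout of the glucocorticoid receptor, read 6.17 and 5.97 in anti-CSF1R liver, against 6.44, 6.31 and 6.10 in control liver.

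Hypoxia-induced genes had 7 higher and 8 lower of 15, with a median of -0.08. Ddit4, an inhibitor of mTOR signalling, differed by -0.60 ± 0.15 and the hypoxia target Ankrd37 by 0.45 ± 0.12, both without overlap (adjusted p = 0.19 and 0.20 in limma). The peptide hormone gene Adm was below all controls (-0.28 ± 0.13), and lactate dehydrogenase Ldha, the brightest of the list, differed by -0.08 ± 0.12.

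Among the receptors that can act on Angptl4, Ppard had the largest difference. It read 7.48 and 7.25 in anti-CSF1R liver, against 8.72, 8.44 and 7.82 in control liver, a difference of -0.96 ± 0.27 (adjusted p = 0.20 in limma). Ppara, the main PPAR of hepatocytes, was slightly above all controls, at 10.20 and 9.94 in anti-CSF1R liver, against 9.85, 9.89 and 9.90 in control liver. The coactivator genes Ppargc1b and Ppargc1a differed in opposite directions, by 0.34 ± 0.13 and -0.38 ± 0.16, each without overlap. Rxra, the partner receptor of the PPARs, differed by 0.06 ± 0.10. Of 11 genes 4 were higher and 7 lower, with a median of -0.20 (-0.07 without anti-CSF1R replicate 2).

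Over all lists, 99 of 110 genes had a probe set of their own in the annotation used. None passed an adjusted p of 0.05 in limma. Without adjustment 4 were higher and 7 lower at a p under 0.05, against 9.91% and 8.4% of all genes. Both anti-CSF1R arrays were above all controls for 15 of the 99 genes and below them for 20, against 25.1% and 19.5% of all genes.

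The genes whose values followed Angptl4 most closely over the 5 arrays were sought among 509 genes of at least median level and a difference of at least 0.5. The 5 with the highest Pearson's r were Slc25a47 (0.987), S1pr3 (0.985), Pla2g12a (0.983), Rnf186 (0.978) and H4f16 (0.971), and 10 genes had an r of at least 0.95. With 5 points in groups that lie apart, r is set largely by the difference between the groups. Slc25a47, a mitochondrial carrier of hepatocytes, had 11.45 and 11.52 in anti-CSF1R liver, against 10.78, 10.92 and 10.89 in control liver. S1pr3, a receptor for sphingosine 1-phosphate, had 6.76 and 6.94 in anti-CSF1R liver, against 6.11, 6.21 and 6.37 in control liver. Pla2g12a, a secreted phospholipase A2, had 6.62 and 6.75 in anti-CSF1R liver, against 6.01, 6.02 and 6.05 in control liver. Their differences, from 0.62 to 0.66, were all smaller than that of Angptl4, as were those of the ubiquitin ligase Rnf186 (0.87 ± 0.14) and the histone H4 gene H4f16 (0.63 ± 0.12). Histone H4 genes are near-identical copies, so the probe set of H4f16 may read others as well.

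**Figure D4:**
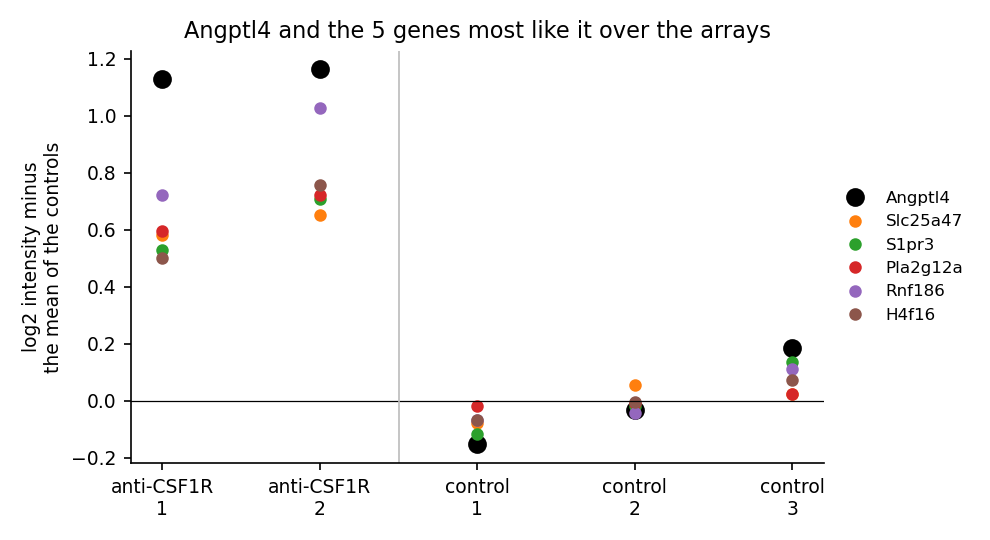
Log2 intensity minus the mean of the controls for Angptl4 (large black points) and the 5 genes with the highest correlation to it over the 5 arrays. All 6 genes are above every control in both anti-CSF1R arrays, and Angptl4 is the highest there, at 1.13 and 1.16.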

How the data were processed

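Livers stored in RNAlater were extracted with Trizol, and cDNA was amplified (NuGEN Pico SL) and labelled with biotin (NuGEN Encore), per the labels' protocols. The authors deposited a linear intensity for each of 35556 probe sets in each of 5 arrays. Per the submitters' processing notes, Affymetrix Expression Console 1.1 was used. How it summarised and normalized the probes is not given in the sources used here. Normalization that draws arrays together can shrink differences, and amplified cDNA may not keep the proportions of the RNA.

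Log2 of the intensity was taken, with no pseudocount or filter. Probe sets were named through the platform annotation, with symbols updated through the RefSeq gene table of GRCm38.p6: 21218 had 1 symbol, 1881 had several and 12457 were not listed. A gene was read from the probe set of highest mean over the arrays. The comparison used lmFit and eBayes of limma 3.58.1, run in R 4.3.3 (3 residual and 3.03 prior degrees of freedom, two-sided), fitted on all probe sets, with Benjamini-Hochberg adjustment. Simulated data for this comparison, 5 runs of 35556 probe sets with 200 changed, gave back 68.2% of 2-fold and 98.2% of 4-fold changes, with 77 false calls in all. The simulated noise was normal and independent between probe sets, with the variances of the fit. These shares may therefore not hold for the real arrays. The number of arrays limits the precision, and the median SE over all probe sets was 0.138.

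The 7 genes, 8 pathway lists and 13 marker lists were chosen with earlier results of these data known. Genes named from a pathway list were the up to 3 of smallest p whose groups did not overlap and the brightest one. From 6 marker lists the 2 brightest genes were eligible, and the likeness to Angptl4 was ranked as stated. Apoc2, Apoa5, Pdk4, Cpt1a, Plin2, Cyp4a14, Fkbp5, Ppara, Adipoq, Lep, Cidea, Lyve1, Cdh5, Stab2, Kdr and Oit3 were added after values were seen. So were Csf1r, Adgre1, Marco, Ctss, Cx3cr1, Mpeg1, Ccr2, Plin1, Cidec and Retn. Replicate numbers were not taken to pair the samples: the deviations of same-numbered arrays correlated at 0.0268 and 0.0325. Alternatives covered normalization, pseudocount, dim probe sets, the probe sets tested, array weights, variance models, a block for the replicate number and leaving out each array.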

Additional observations from a re-analysis of the deposited data

How the results depend on the processing

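The Angptl4 difference of 1.15 kept its sign under all 16 alternatives tried. Alternatives that altered only the probe sets tested, the dim probe sets kept or the variance model could not change a gene's difference. The replicate block gave the same differences as leaving out control replicate 3. The counts out of 16 therefore hold fewer separate checks than 16. The Angptl4 difference ran from 1.11 to 1.24 over 11 processing alternatives, the higher value being that with the replicate number as a block, and from 1.07 to 1.24 when 1 array was left out. Lpl stayed negative under all 16 (-0.44 to -0.30 over the processing alternatives, -0.56 to -0.33 with 1 array left out), and Gpihbp1 stayed positive under all 16 (0.42 to 0.55 and 0.26 to 0.63). Lipg changed sign under 1 of 16 and Lmf1 under 2 of 16, with the values given above. The fit over all probe sets called 0 higher and 0 lower at an adjusted p of 0.05 in limma, also with the replicate block and with any 1 array left out. It called 5 higher and 9 lower when only 1 probe set per gene was fitted, and 3 and 5 when only probe sets with 1 symbol were fitted. Angptl4 was among the higher calls of both, with adjusted p of 0.0296 and 0.0433 in limma (0.0296 to 0.371 over the 16 alternatives), which is no independent support for a gene chosen for its difference. With 17778 probe sets left after those under the median level were dropped, 0 were called, and the cause of the calls was not tested. At an adjusted p of 0.2 there were 840 higher and 896 lower. No gene of the 8 lists was called under any of the 16 alternatives. The medians of 5 lists (lipoprotein uptake, PPAR targets, glucocorticoid-induced, hypoxia-induced, PPAR and partner receptors) kept their sign under all 16. Those of the lipase partners, the intracellular lipases and the angiopoietin-like genes kept it under 12, 14 and 11 of 16. Other choices of probe set were not run, since each gene had 1. With a single anti-CSF1R array left, its spread is taken to be that of the control arrays.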
